A study of Rattus rattus with 18 samples.

Results

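The muscle-type miRNAs measured here were the 7 rat miRNAs of the miR-1, miR-133, miR-206, miR-208a and miR-499 families that were listed by name and found both in the spot files and in the normalized table, out of 761 miRNAs on the array. They were followed in brain tissue of 9 Sprague Dawley rats, 3 per condition, each rat giving 1 core array and 1 peri array, 18 arrays in all. The conditions were sham-operated controls, tMCAO (transient middle cerebral artery occlusion, a model of ischemic stroke with reperfusion) and PostC (remote limb postconditioning, short interruptions of blood flow in a limb). The labels do not say whether PostC rats also underwent tMCAO, and the study describes its rats as adult males without an age. The study's methods name an early and a late time of sacrifice after reperfusion without saying which applies to the arrays. The labels give temporo-parietal cortex as the tissue of core and striatum as that of peri, whereas the study's methods give these tissues the other way round, so the regions are named here as core and peri alone.

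These miRNAs are known as myomiRs because striated muscle holds far more of them than other tissues do. miR-1 and miR-133a are transcribed together in heart and skeletal muscle, miR-206 and miR-133b together in skeletal muscle, and miR-208a and miR-499 lie within introns of myosin heavy chain genes of the heart and of slow muscle. A miRNA lowers its target mRNAs by pairing mainly through its seed, bases 2 to 8 from the 5′ end, so that miRNAs with the same seed share most predicted targets. In nervous tissue miR-133b has been studied in dopaminergic neurons and miR-206 as a regulator of the growth factor BDNF.

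The target sequences printed on the array design are shown because the families differ by few bases, and an array probe may not tell near-identical miRNAs apart. Capitals mark the seed.
rno-miR-1-3p: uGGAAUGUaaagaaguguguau
rno-miR-206-3p: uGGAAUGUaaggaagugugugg
rno-miR-133a-3p: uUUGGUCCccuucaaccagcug
rno-miR-133b-3p: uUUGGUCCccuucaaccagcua
rno-miR-208a-3p: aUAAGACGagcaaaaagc
rno-miR-208a-5p: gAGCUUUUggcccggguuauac
rno-miR-499-5p: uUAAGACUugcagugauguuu

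rno-miR-1-3p and rno-miR-206-3p carry the same seed, and their targets differ at 3 positions counted from the 5′ end, A11G, A21G and U22G, with the base of rno-miR-1-3p first. The array held 1 more miRNA with that seed, rno-miR-1b, which differs from rno-miR-1-3p by the single substitution G17A. rno-miR-133a-3p and rno-miR-133b-3p were identical over 21 bases and differed by G22A at the last. rno-miR-208a-3p and rno-miR-499-5p shared bases 2 to 7 but not base 8. The target of rno-miR-208a-3p on this array had 18 bases, the shortest of the 7. rno-miR-208a-5p, the opposite arm of the miR-208a hairpin, shared its seed with 1 other array miRNA, rno-miR-208b-5p, and had no other array miRNA within 3 differences.

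Each miRNA had 4 spots per array, and the median of these is given as its spot intensity in scanner units. A miRNA was called detected on an array when that median lay above the median of the array's 612 empty spots plus 3 scaled median absolute deviations. This limit lay between 49.1 and 171 units on the sham arrays, between 77.4 and 346 on the tMCAO arrays and between 52.9 and 566 on the PostC arrays, so detection was stricter on several tMCAO and PostC arrays. Between 188 and 605 miRNAs were detected per array, and 532 miRNAs detected on at least 3 arrays were tested. The core arrays of sham rat 2 and PostC rat 3 had the lowest median correlations to the other arrays, 0.848 and 0.850. The core array of tMCAO rat 2 was close to them at 0.862, against 0.886 to 0.954 elsewhere. Where leaving out sham rat 2 or PostC rat 3 changed a call or a direction of a member, this is given beside the result or among the processing alternatives. All 8 neuronal miRNAs listed as a check of the tissue were tested, and their intensity summed from the authors' deposited normalized table, as are all sums of listed miRNAs given here, lay between 63067 and 118557 units over all arrays.

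Detection set the members apart from each other. rno-miR-133a-3p was detected on 15 of 18 arrays, rno-miR-133b-3p on 13, rno-miR-206-3p on 11, rno-miR-1-3p and rno-miR-499-5p on 9 each, rno-miR-208a-5p on 6 and rno-miR-208a-3p on none. Against a second limit, set from the dimmest 25% of spots, which is lower on most arrays, rno-miR-133a-3p, rno-miR-133b-3p and rno-miR-206-3p were above it on all 18 arrays, rno-miR-499-5p on 15, rno-miR-1-3p and rno-miR-208a-5p on 13, and rno-miR-208a-3p still on none. Therefore 6 of the 7 members entered the tests. Between arrays, rno-miR-208a-5p and rno-miR-1-3p varied most among the members, with SDs of 1.33 and 0.88 on the normalized log2 scale that exceeded those of 97.0% and 86.3% of the miRNAs tested.

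**Figure D1:**
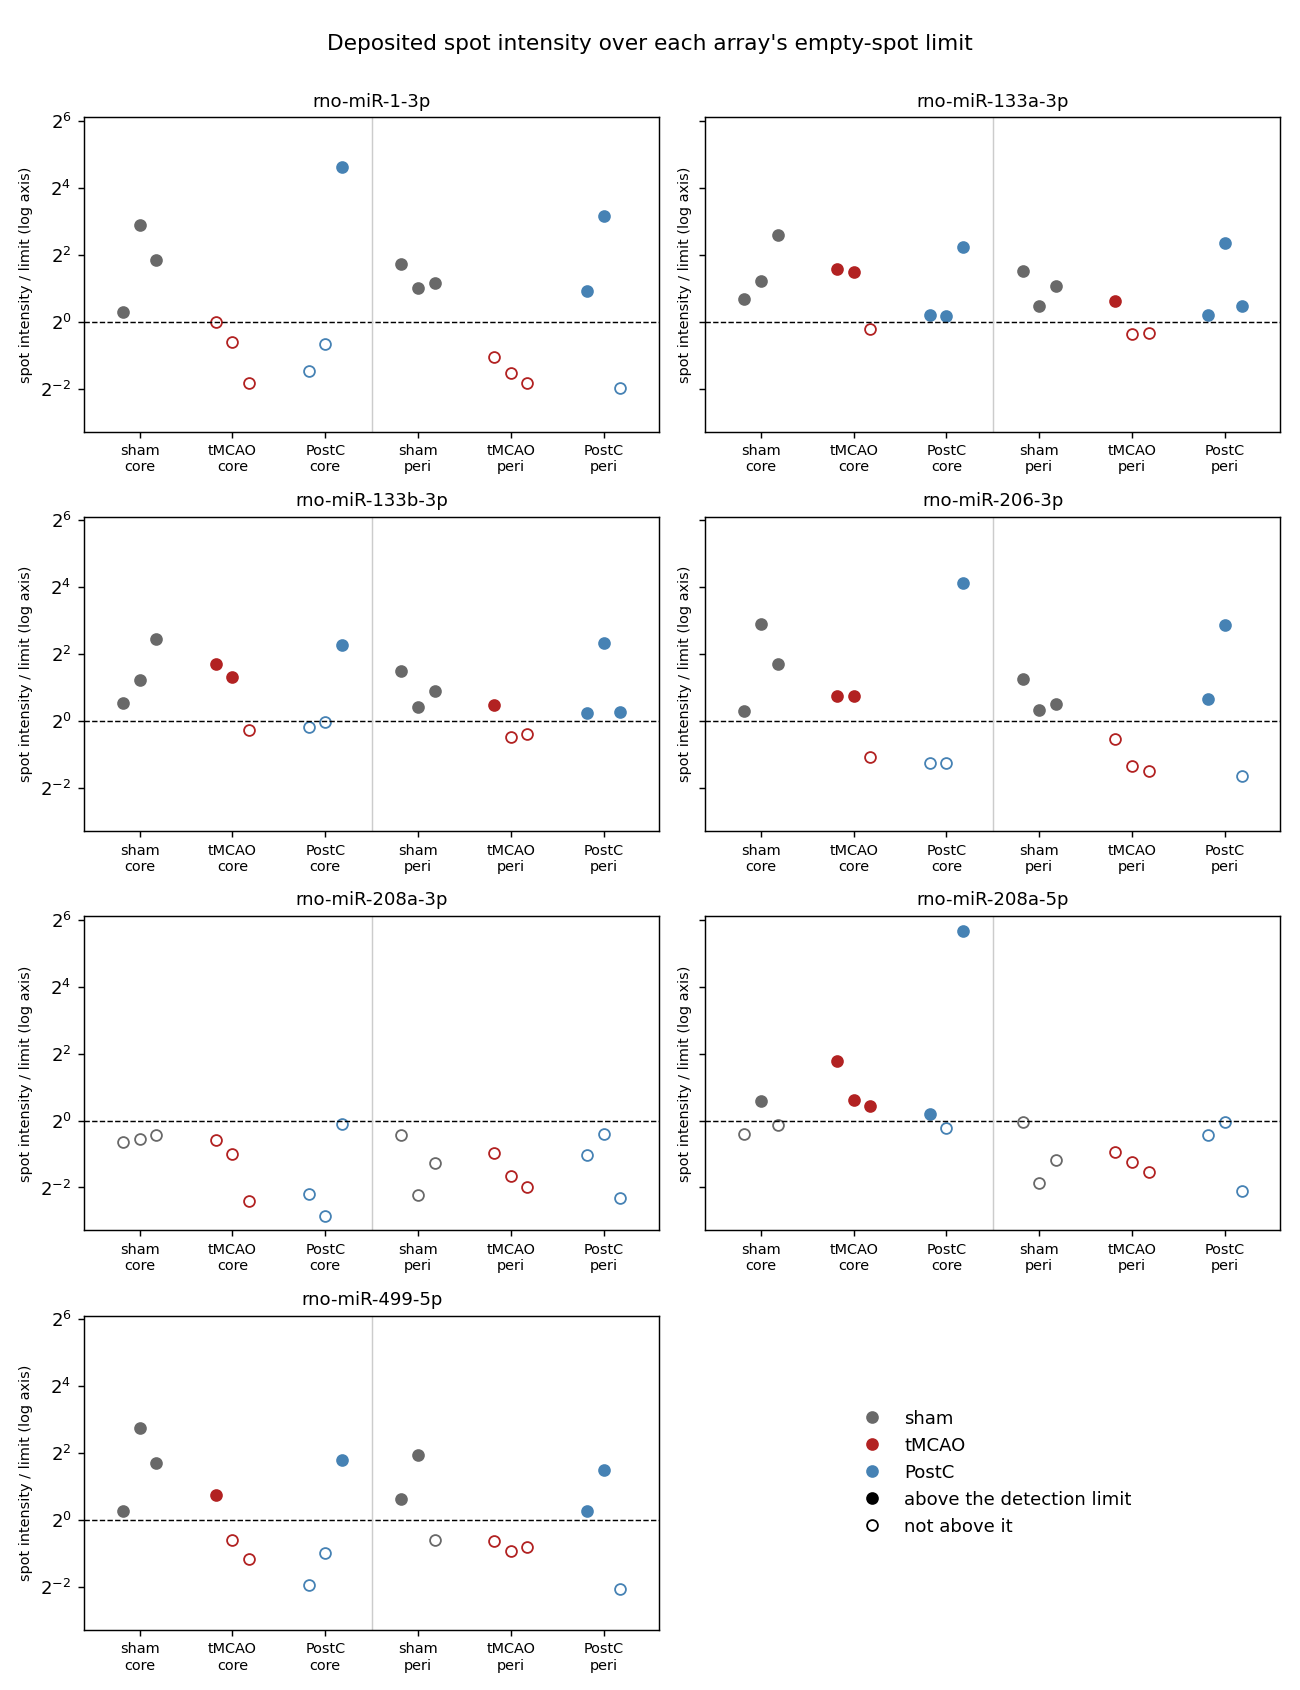
Deposited spot intensity of each member divided by the empty-spot limit of the same array, on a log axis, 1 point per array in 6 groups of 3 rats. The dashed line marks the limit. rno-miR-1-3p lies above it on 6 of 6 sham arrays and 0 of 6 tMCAO arrays, rno-miR-208a-5p above it on core arrays alone, and rno-miR-208a-3p above it on none.

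rno-miR-1-3p, the most abundant miRNA of heart and skeletal muscle, was present in sham brain tissue and fell below detection after tMCAO. Its spot intensity on the sham arrays was 195, 438 and 176 units in core and 280, 342 and 295 units in peri, all above the limit. After tMCAO it was 76.6, 74.5 and 67.9 units in core and 39.2, 119 and 94.5 units in peri, below the limit of every array and below every sham value. On the PostC arrays it was 65.0, 357 and 2050 units in core and 349, 477 and 83.0 units in peri, detected in core of rat 3 and in peri of rats 1 and 2. The tMCAO arrays were thus low without exception and the PostC arrays widely spread.

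After normalization, rno-miR-1-3p was at 8.10 ± 0.31 in sham rats, 6.98 ± 0.21 in tMCAO rats and 8.33 ± 0.25 in PostC rats (log2 scale, core and peri averaged within each rat, SD, n = 3). The rats of the tMCAO group overlapped with neither of the other groups. The fall from sham to tMCAO had a log2 difference of -1.12 ± 0.22 (SE) and passed the test (limma, Benjamini-Hochberg adjusted p = 0.0103). PostC rats were higher than tMCAO rats by 1.35 ± 0.22 (adjusted p = 0.00799). No tMCAO array reached its limit, so the fitted sizes rest on values not above background in that group. Against the lowest intensity measurable on each tMCAO array, rno-miR-1-3p was at least 1.24-fold higher in sham rats. For PostC rats no such bound is given, since 3 of their 6 arrays were themselves not above the limit. PostC against sham gave 0.23 ± 0.22 (adjusted p = 0.674), with overlapping rats. The comparisons share rats, so the fall after tMCAO and the higher value in PostC are not independent of each other.

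tMCAO was the lowest condition in each region. In core, rno-miR-1-3p was at 8.01 ± 0.65 in sham, 6.95 ± 0.15 in tMCAO and 8.52 ± 1.34 in PostC rats (SD, n = 3), and in peri at 8.19 ± 0.06, 7.01 ± 0.29 and 8.14 ± 0.98. Within 1 region the fall after tMCAO did not pass the adjusted threshold, with a log2 difference of -1.06 ± 0.61 (adjusted p = 0.312) in core and -1.18 ± 0.40 (adjusted p = 0.178) in peri, although the arrays did not overlap in either. PostC against tMCAO gave 1.57 ± 0.61 (adjusted p = 0.293) in core and 1.13 ± 0.40 (adjusted p = 0.725) in peri. These values depended on single PostC rats, first on rat 3, the highest of its group in core and the lowest in peri. Without it, PostC against tMCAO was 0.80 (adjusted p = 0.540) in core and 1.67 (adjusted p = 0.00427) in peri, and the fall from sham to tMCAO in peri passed as well (adjusted p = 0.0151). Without PostC rat 2, the highest in peri, PostC against tMCAO in peri was 0.72 (adjusted p = 0.994). Without sham rat 2 the difference of tMCAO from sham in core was -0.69 (adjusted p = 0.640). As bounds, sham was at least 1.53-fold higher than tMCAO in core and at least 1.00-fold in peri, where the limits of the tMCAO arrays were the highest. The difference between regions of the change from sham to tMCAO was 0.12 ± 0.95 and did not pass (adjusted p = 0.972).

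The calls on rno-miR-1-3p in the rat means held without sham rat 2 or PostC rat 3, but the fall did not pass without tMCAO rat 2. Without sham rat 2 the fall was -0.94 (adjusted p = 0.0230) and PostC against tMCAO 1.35 (adjusted p = 0.00214). Without PostC rat 3 the latter was 1.23 (adjusted p = 0.0196). Without tMCAO rat 2, whose core array was the next least correlated, the fall was -1.13 with an adjusted p of 0.0599. The size of the fall depended on how dim values were treated, and in the deposited normalized table with a floor of 1 unit it was -4.52 (adjusted p = 0.000327). In core, the summed intensity of the 8 neuronal miRNAs was lower in tMCAO (63067 to 85025 units) than in sham rats (105767 to 111183 units), while in peri it overlapped (95615 to 104120 against 95988 to 115788). In PostC core the sum, 81101 to 97342 units, was below sham as well, whereas rno-miR-1-3p was not lower there (8.52 against 8.01 in sham core). In the rat means 4 of the 8 fell after tMCAO by limma, where 7.33% of all miRNAs did, namely rno-miR-218a-5p (-2.23), rno-miR-137-3p (-1.61), rno-miR-153-3p (-1.35) and rno-miR-9a-5p (-1.20), named after their values were seen. The others did not pass, at 0.44 for rno-miR-128-3p, 0.06 for rno-miR-138-5p, -0.01 for rno-miR-124-3p and -0.44 for rno-miR-9a-3p. The part of the neuronal miRNAs in the fall of rno-miR-1-3p was not tested. In bulk tissue, fewer cells of a type and less RNA per cell cannot be told apart.

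**Figure D2:**
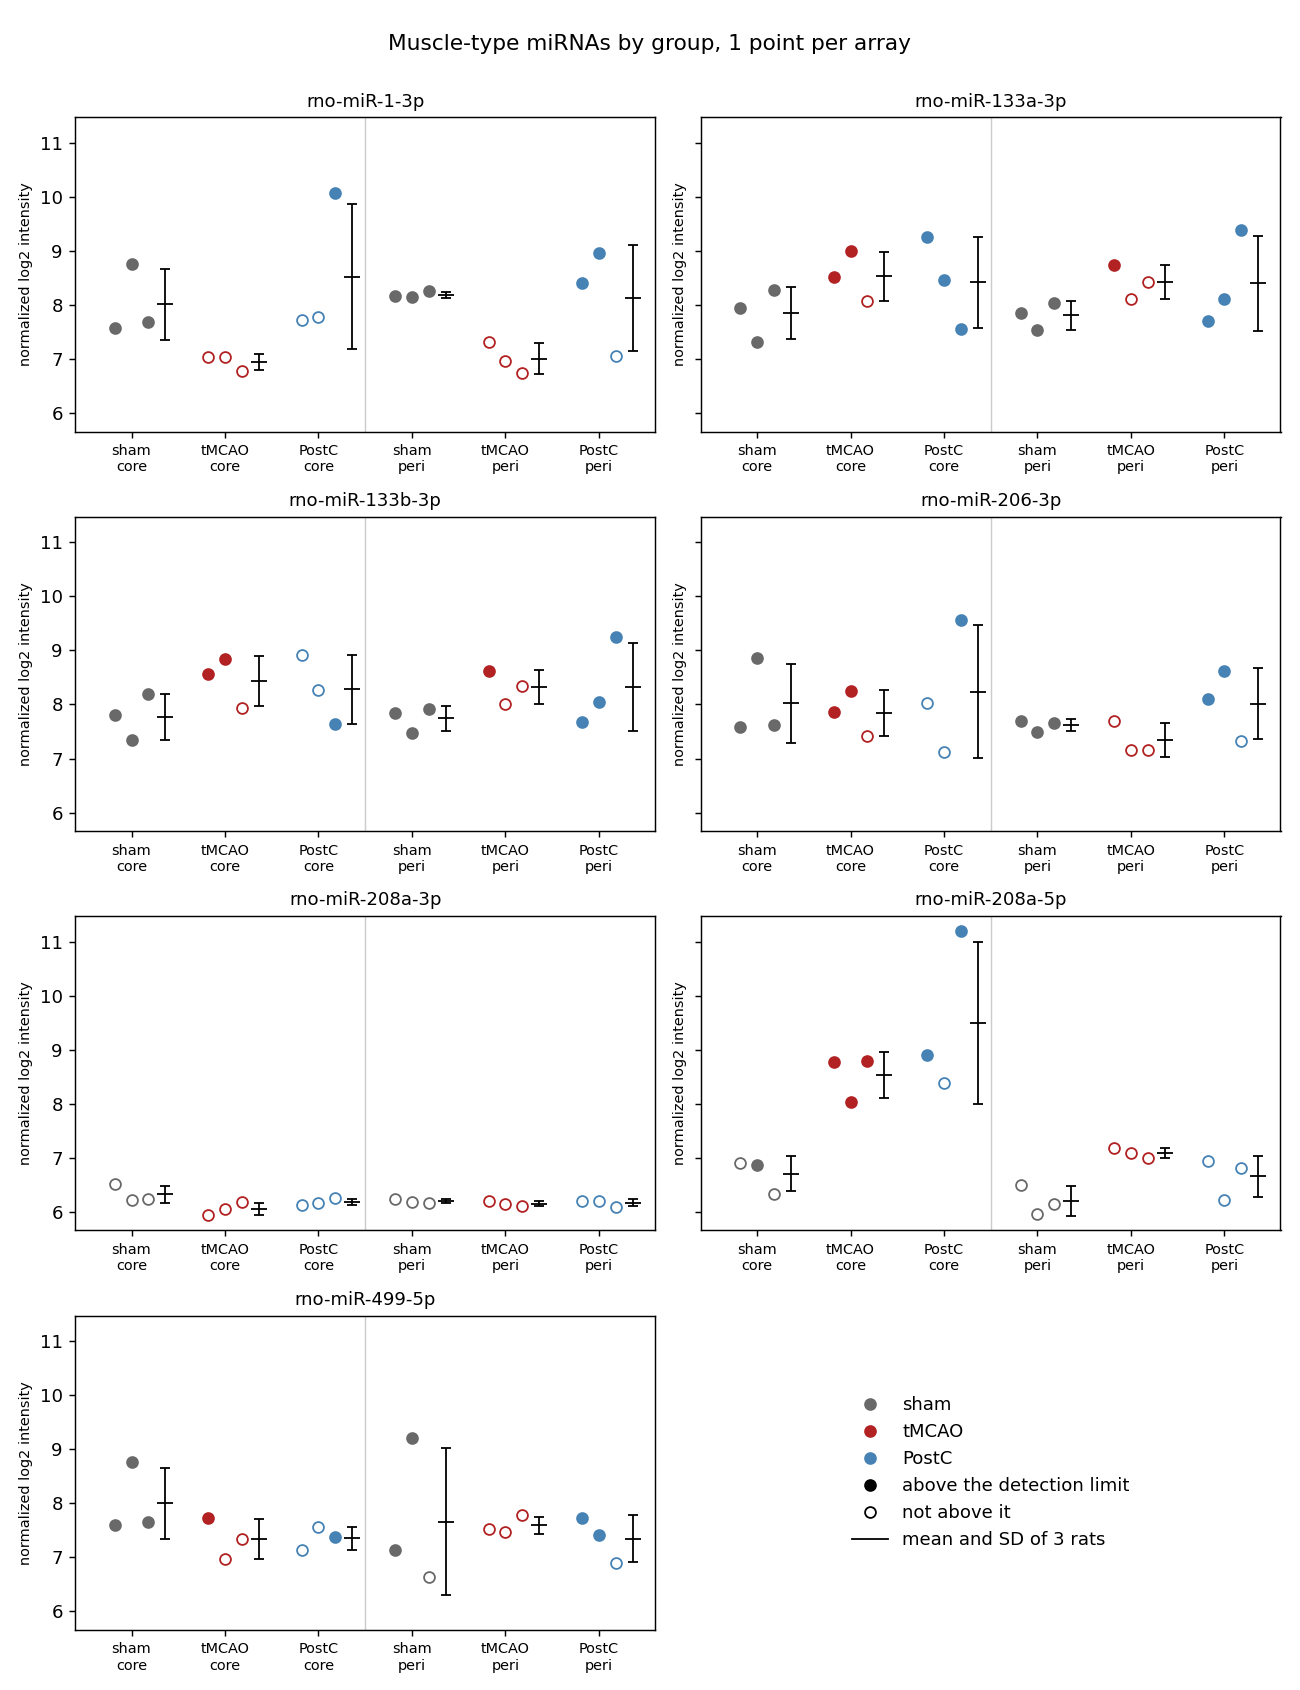
Normalized log2 intensity of the 7 members, 1 point per array in 6 groups, filled where the miRNA was detected, with the mean and SD of 3 rats beside the points. rno-miR-1-3p lies between 6.75 and 7.32 on the tMCAO arrays, below all sham arrays, and rno-miR-208a-5p reaches 8.04 or more in tMCAO and PostC core only.

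rno-miR-206-3p, found mainly in skeletal muscle, passed no test between conditions in the rat means. Its spot intensity was 199, 439 and 160 units in sham core and 204, 214 and 188 units in sham peri, against 130, 191 and 114 units in tMCAO core and 55.4, 137 and 121 units in tMCAO peri. It was detected on 6 of 6 sham, 2 of 6 tMCAO and 3 of 6 PostC arrays. Its normalized rat means were 7.82 ± 0.31 in sham, 7.59 ± 0.27 in tMCAO and 8.13 ± 0.29 in PostC rats, and the values were a log2 difference of -0.23 ± 0.24 for tMCAO against sham (adjusted p = 0.526), 0.31 ± 0.24 for PostC against sham (adjusted p = 0.599) and 0.54 ± 0.24 for PostC against tMCAO (adjusted p = 0.252). The size of the first depended on the processing, at -1.34 under plain subtraction of the empty spots (adjusted p = 0.341), -1.04 in the deposited table with a floor of 1 unit (adjusted p = 0.0627), -0.62 under quantile normalization, which did not pass, and -0.050 without sham rat 2 (adjusted p = 0.915). In peri, PostC against tMCAO was 0.67 ± 0.32 (adjusted p = 0.725), and 1.02 (adjusted p = 0.0292) without PostC rat 3, with no tMCAO peri array above the limit. The brightest array was PostC core of rat 3 at 1442 units, the array on which rno-miR-1-3p was also brightest.

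Across the 18 arrays rno-miR-206-3p and rno-miR-1-3p had a Pearson correlation of 0.79, and of 0.92 after the group means were removed, as a description of arrays that share depth and normalization. rno-miR-1b, 1 base from rno-miR-1-3p, was detected on 7 arrays and correlated with it at 0.64. For rno-miR-1b, tMCAO against sham gave a log2 difference of -0.28 ± 0.19 (adjusted p = 0.338), which did not pass the test. Whether the probes of these miRNAs bind each other's targets was not tested.

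rno-miR-133a-3p and rno-miR-133b-3p, which restrain growth and differentiation of muscle cells, were the most often detected members. Spot intensities of rno-miR-133a-3p were 258, 135 and 295 units in sham core, 245, 235 and 273 in sham peri, 232, 320 and 208 in tMCAO core, 123, 270 and 267 in tMCAO peri, 206, 643 and 392 in PostC core and 214, 273 and 454 in PostC peri. After normalization its rat means were 7.83 ± 0.37 in sham, 8.48 ± 0.20 in tMCAO and 8.41 ± 0.11 in PostC rats. The 3 sham rats lay below all 6 tMCAO and PostC rats. Even so, neither tMCAO against sham, a log2 difference of 0.65 ± 0.23 (adjusted p = 0.0811), nor PostC against sham, 0.58 ± 0.23 (adjusted p = 0.291), passed the test across all miRNAs. PostC against tMCAO was -0.07 ± 0.23 (adjusted p = 0.912).

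rno-miR-133b-3p gave nearly the same values. Its rat means were 7.76 ± 0.33 in sham, 8.38 ± 0.23 in tMCAO and 8.30 ± 0.14 in PostC rats, and its differences from sham were 0.62 ± 0.23 (adjusted p = 0.0847) and 0.54 ± 0.23 (adjusted p = 0.291). The correlation between both miR-133 members over 18 arrays was 0.99, and their log2 values differed by a median of 0.10. With targets that differ in the last base alone, they cannot be counted as 2 measurements. The size of the difference from sham depended on the scaling. When arrays were scaled to the same median, which placed the median of all tested miRNAs at -0.20 for tMCAO against sham, it was 0.16 for rno-miR-133a-3p and 0.15 for rno-miR-133b-3p. Under plain subtraction it was larger, at 1.47 and 1.13 with the empty spots and 1.12 and 1.08 with the 25th percentile, and did not pass either.

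**Figure D3:**
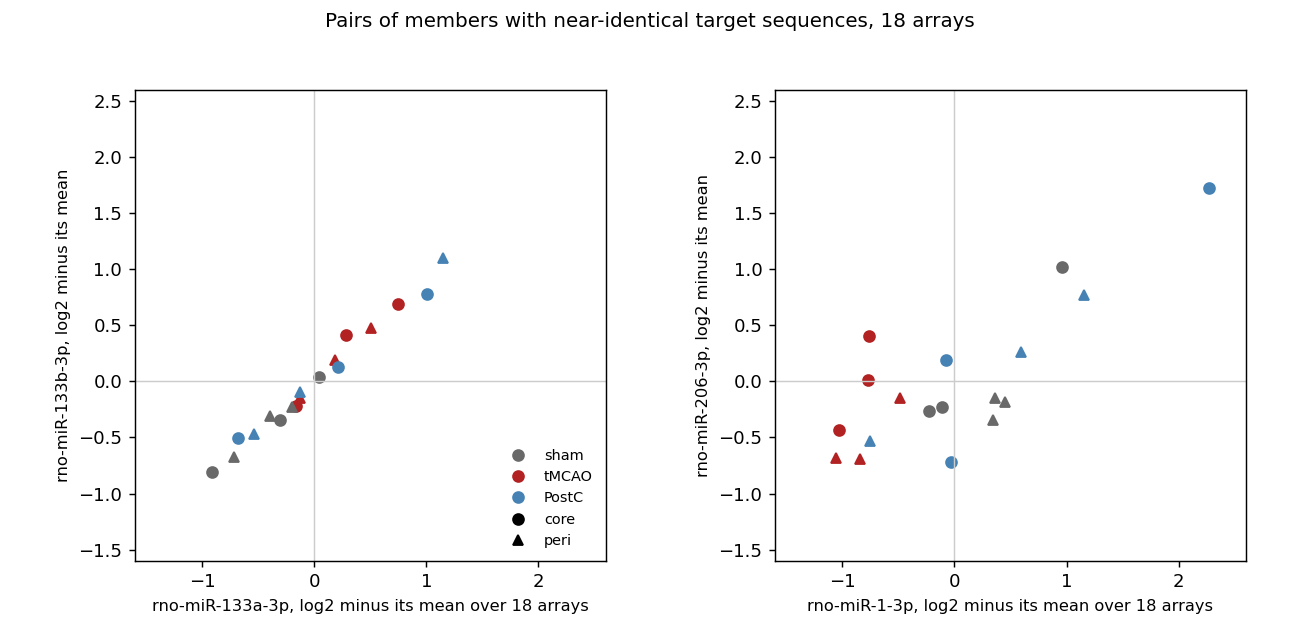
Deviation of each array from the miRNA's own mean over 18 arrays on the normalized log2 scale, for rno-miR-133a-3p against rno-miR-133b-3p and rno-miR-1-3p against rno-miR-206-3p. Circles are core and triangles peri arrays. The miR-133 pair falls on a narrow line (r = 0.99), while the miR-1 and miR-206 pair is wider (r = 0.79), with tMCAO arrays at the left.

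Of the arms of the miR-208a hairpin, the -5p arm was detected on some arrays. rno-miR-208a-3p, the arm usually studied in heart muscle, was not detected on any of 18 arrays, with spot intensities of 36.4 to 109 units and normalized values of 5.95 to 6.51. No fold or test is given for it. Its target on the array was the shortest of the 7, and whether the length affects its signal was not tested. rno-miR-208a-5p, by contrast, was detected on 6 arrays, all of them core. Its spot intensity in core was 121, 87.5 and 44.6 units in sham rats, of which the 1 of rat 2 was above the limit, 266, 172 and 322 units in tMCAO rats, all above it, and 206, 489 and 4258 units in PostC rats, above it in rats 1 and 3. In peri it ranged from 42.5 to 145 units and was not above the limit on any of 9 arrays. High values were thus found in core of tMCAO and PostC rats.

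In core, rno-miR-208a-5p was at 6.71 ± 0.32 in sham, 8.53 ± 0.43 in tMCAO and 9.49 ± 1.50 in PostC rats, and the sham arrays overlapped with neither of the others. tMCAO exceeded sham by a log2 difference of 1.82 ± 0.65 (adjusted p = 0.148) and PostC exceeded sham by 2.79 ± 0.65 (adjusted p = 0.0855). Neither passed the test within core. Since 1 of 3 sham core arrays was above its limit, the sizes of these differences are not measured folds. Averaged over both regions of a rat it was at 6.45 ± 0.23 in sham, 7.81 ± 0.22 in tMCAO and 8.08 ± 0.86 in PostC rats, and the rise of 1.36 ± 0.36 from sham to tMCAO passed (adjusted p = 0.0350). PostC against sham, 1.62 ± 0.36, had an adjusted p of 0.0957, and PostC against tMCAO, 0.26 ± 0.36, one of 0.779, which turned to -0.21 (adjusted p = 0.764) without PostC rat 3. These averages include peri values, none of them above the limit, and the limit was passed on 1 of 6 sham, 3 of 6 tMCAO and 2 of 6 PostC arrays. The sizes are therefore differences of fitted values that lie largely below detection, and rno-miR-208a-5p entered the tests through core arrays alone, 5 of 6 in tMCAO or PostC rats. Both peri groups lay below the limit, so no fold between conditions is given for peri.

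In the deposited table with a floor of 1 unit the rise was 2.23 (adjusted p = 0.0212), and with a floor of 50 units 1.01 (adjusted p = 0.143). The call on rno-miR-208a-5p was less stable than that on rno-miR-1-3p. It was lost when any of 5 rats was left out, with adjusted p of 0.115 without tMCAO rat 1, 0.0828 without tMCAO rat 2, 0.0545 without sham rat 1, 0.0734 without sham rat 2 and 0.0860 without sham rat 3. The difference itself stayed between 1.26 and 1.49 in these fits. Without PostC rat 3, whose core array was among the least correlated and had the most miRNAs detected, the rise from sham to tMCAO was 1.36 (adjusted p = 0.00585) in the rat means and 1.82 (adjusted p = 0.0258) in core. PostC against sham in core was then 1.93 (adjusted p = 0.0734). The 6 leukocyte miRNAs listed, all of them detected on some array, had a summed intensity in core of 2729 to 3799 units in sham, 7125 to 10367 in tMCAO and 5052 to 7894 in PostC rats. Sham was thus the lowest group in core for this sum as for rno-miR-208a-5p, while the sum was not higher in PostC than in tMCAO rats. In the rat means 2 of the 5 tested rose after tMCAO by limma, where 4.51% of all miRNAs did, and both were named after their values were seen. These were rno-miR-150-5p, detected on 18 arrays (log2 0.92, adjusted p = 0.0298), and rno-miR-155-5p, detected on only 3 arrays (log2 0.87, adjusted p = 0.0126). The others tested did not pass, at 0.75 for rno-miR-223-3p, 0.62 for rno-miR-146a-5p and -0.28 for rno-miR-142-5p, and rno-miR-142-3p was detected on 1 array and not tested. The part of the leukocyte miRNAs in the rise of rno-miR-208a-5p was not tested.

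Among the members, rno-miR-208a-5p also had the largest mean difference between regions. Its normalized value was higher in core than in peri in 9 of 9 rats, by a mean log2 difference of 1.59 ± 1.25 (SD). In 6 of these rats core was above its limit and peri was not, and in the other 3, sham rats 1 and 3 and PostC rat 2, neither was, so that the order within those 3 rats is one of values not above background. Because rno-miR-208a-5p was detected in core alone and entered the tests through those arrays, no test of this difference is given. In tMCAO rats, where all 3 core arrays and no peri array were above the limit, core was at least 1.29-fold higher than peri. The fitted difference between regions of the change from sham to tMCAO was 0.92 ± 0.77 (limma, adjusted p = 0.745). Since no peri array was above the limit, it cannot show whether the change was larger in core.

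**Figure D4:**
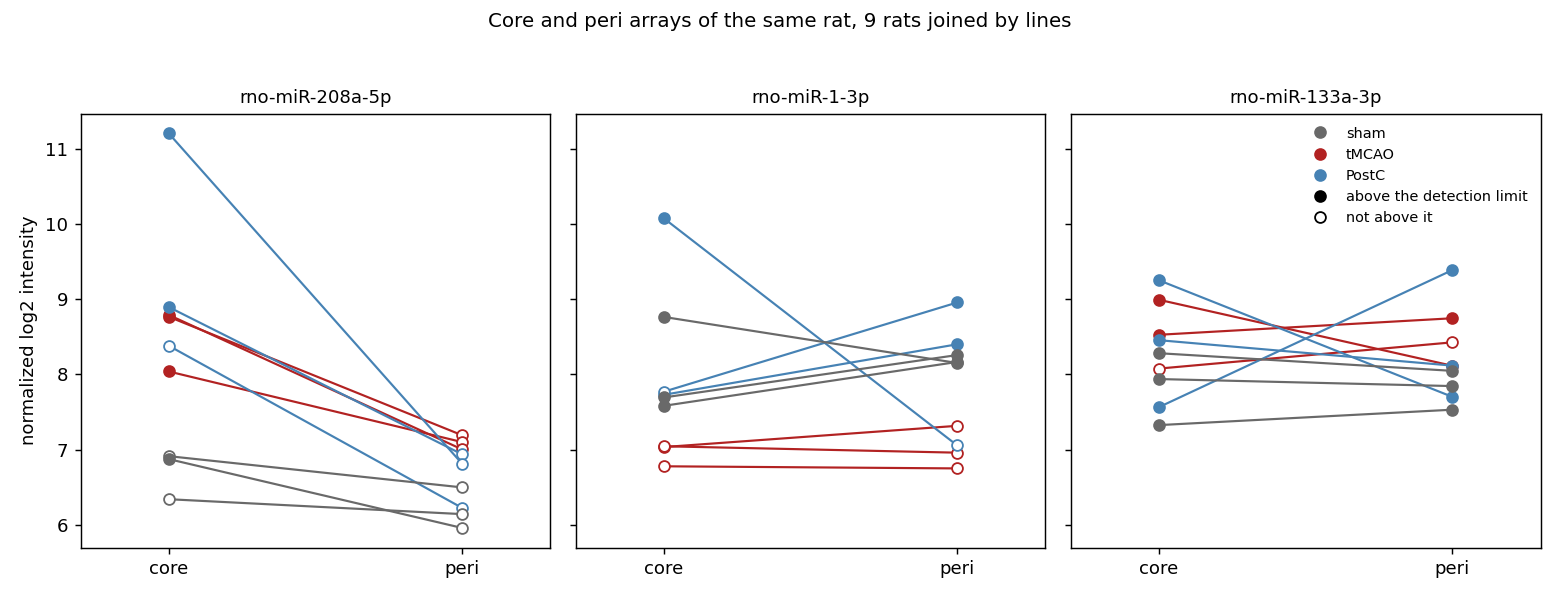
Normalized log2 intensity in core and peri of the same rat, 9 rats joined by lines, for rno-miR-208a-5p, rno-miR-1-3p and rno-miR-133a-3p, filled where detected. All 9 lines of rno-miR-208a-5p fall from core to peri, in 3 of them with neither end above the limit, while those of rno-miR-1-3p fall in 4 and those of rno-miR-133a-3p in 5 rats.

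rno-miR-499-5p, from an intron of a slow-muscle myosin gene, was detected on 5 of 6 sham, 1 of 6 tMCAO and 3 of 6 PostC arrays. Its spot intensity was 192, 392 and 161 units in sham core and 132, 659 and 87.1 units in sham peri, where rat 2 was the highest in both regions. In tMCAO rats it was 75.2 to 130 units in core and 52.4 to 192 in peri, and in PostC rats 46.3 to 287 and 78.4 to 224. The rat means were 7.83 ± 1.00 in sham, 7.47 ± 0.22 in tMCAO and 7.35 ± 0.19 in PostC rats, and the groups overlapped. The log2 differences from sham, -0.36 ± 0.40 for tMCAO (adjusted p = 0.559) and -0.48 ± 0.40 for PostC (adjusted p = 0.627), did not pass. Without sham rat 2 both turned to positive values, 0.21 and 0.10. PostC against tMCAO was -0.12 ± 0.40 (adjusted p = 0.912).

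Of the 6 members tested, 2 passed the test for tMCAO against sham in the rat means, rno-miR-1-3p lower and rno-miR-208a-5p higher, where 11.8% of all 532 miRNAs tested passed (24 higher and 39 lower). Both had entered the tests mostly or only through the groups where they are high. rno-miR-208a-5p was above the limit on 3 tMCAO, 2 PostC and 1 sham array, and rno-miR-1-3p on 6 sham, 3 PostC and 0 tMCAO arrays. Neither call can therefore be read against that share. For PostC against tMCAO 1 member passed, rno-miR-1-3p, beside 5.64% of all miRNAs, and the same limit holds for it. For PostC against sham no member passed, beside 0.188%. There 3 members, both miR-133 members among them, had an unadjusted p under 0.05 by limma, as had 14.1% of all. At that unadjusted threshold limma gave 4 members for tMCAO against sham and 2 for PostC against tMCAO, beside 31.4% and 18.4% of all. Members whose rats did not overlap between the groups numbered 4 for tMCAO against sham, 3 for PostC against sham and 2 for PostC against tMCAO, where the same held for 41.0%, 18.2% and 26.1% of all miRNAs tested. Both miR-133 members are among the 4 and among the 3, although they are not 2 separate measurements. rno-miR-208a-5p is also among the 4 and the 3, and rno-miR-1-3p among the 4 and the 2. The same members make up the counts at the unadjusted threshold. As rno-miR-208a-5p and rno-miR-1-3p entered the tests through groups where they are high, these counts are not read against the shares. In size, the members' median absolute log2 difference was 0.64 for tMCAO against sham, beside 0.33 over all miRNAs tested, and 3 members had positive and 3 negative values. It was 0.51 beside 0.22 for PostC against sham, but 0.19 beside 0.23 for PostC against tMCAO and 0.05 beside 0.15 for core against peri.

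Within core alone no member passed in any comparison, where 3.38% of all miRNAs passed for tMCAO against sham, 0% for PostC against sham and 2.26% for PostC against tMCAO. Within peri none passed either, beside 0.564%, 0% and 0% in the same order. At an unadjusted p under 0.05, limma gave 1 member in each of the core fits, beside 21.8%, 16.9% and 13.3% of all miRNAs, and 2, 1 and 2 members in the peri fits, beside 15.2%, 2.63% and 5.83%. In each peri fit 1 of these was rno-miR-208a-5p, which was not above the limit on any peri array, so that nothing is read from it. In core the 1 member was rno-miR-208a-5p in both fits against sham, and rno-miR-1-3p in PostC against tMCAO. Without PostC rat 3, limma called 1 member for tMCAO against sham in core, rno-miR-208a-5p, beside 5.08% of all miRNAs. As rno-miR-208a-5p entered the tests through core arrays alone, mostly of tMCAO and PostC rats, its core results are not read against these shares. In peri it then called rno-miR-1-3p for tMCAO against sham, beside 6.77%. It also called rno-miR-1-3p and rno-miR-206-3p for PostC against tMCAO, beside 11.1%. Neither was above the limit on any tMCAO peri array, so these calls are not read against the shares. The fit for tMCAO against sham in peri also passed rno-miR-208a-5p, whose sham and tMCAO peri arrays were all below the limit, and this is not counted as a difference. Core against peri within rats called no member and 0.752% of all miRNAs, and the region difference of the tMCAO change called no member and 0% of all. The unadjusted p was under 0.05 by limma for 1 and 0 members, beside 7.33% and 8.65% of all. The 1 member was rno-miR-208a-5p, detected in core alone, so nothing is read from it.

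**Figure D5:**
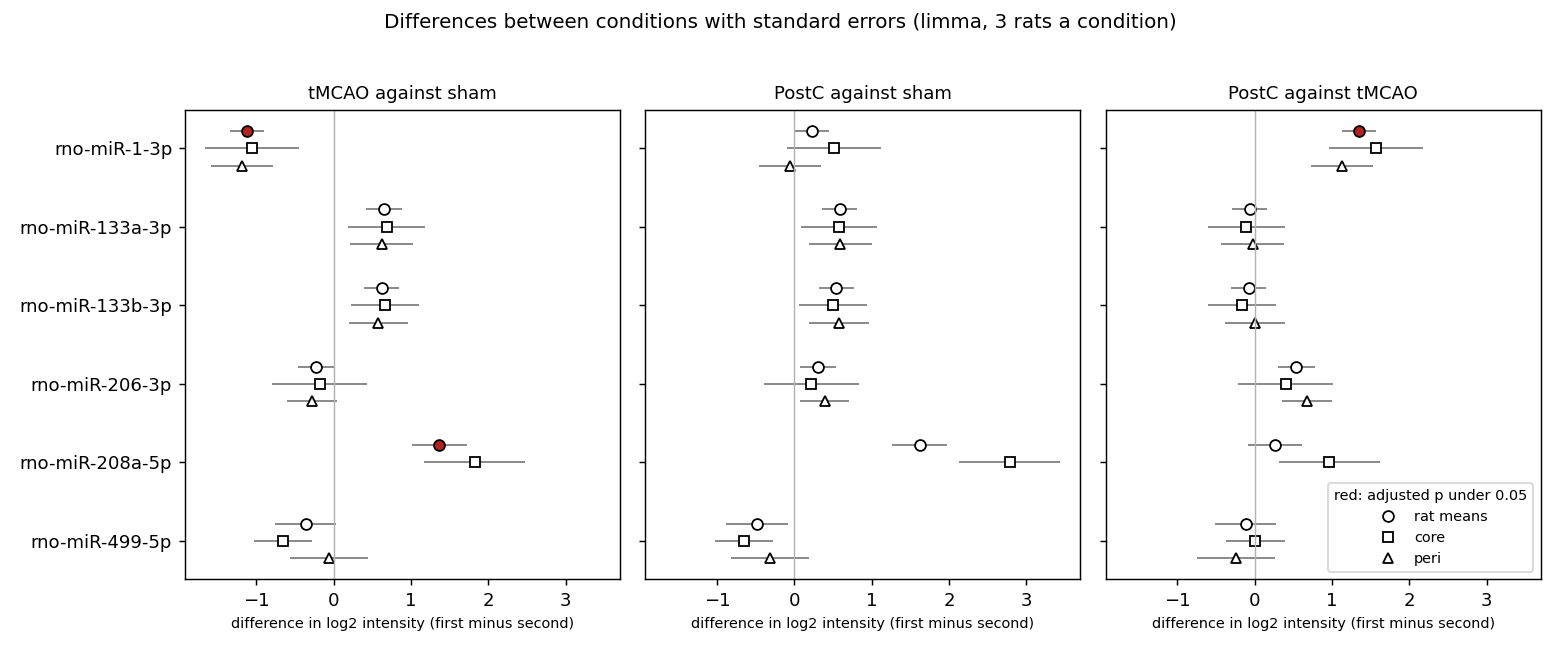
Log2 difference between conditions with its standard error (limma, 3 rats a condition) for the 6 tested members, as rat means (circles), core (squares) and peri (triangles), red where the adjusted p was under 0.05. Points of rno-miR-208a-5p in peri are left out because both groups lay below the limit. The red points are rno-miR-1-3p at -1.12 and 1.35 and rno-miR-208a-5p at 1.36.

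Ordered by the mean of the 6 groups, rno-miR-1-3p was highest in PostC core and lowest in tMCAO core, and the sole break without overlap between neighbours lay between sham core, the fourth, and tMCAO peri, the fifth. rno-miR-208a-5p ran from PostC core through tMCAO core, tMCAO peri, sham core and PostC peri to sham peri, and only tMCAO peri was separated from both of its neighbours without overlap, although its arrays were not above the limit. No peri array of rno-miR-208a-5p and no tMCAO array of rno-miR-1-3p was above the limit, so the order among those groups is one of values not above background. For rno-miR-133a-3p and rno-miR-133b-3p tMCAO core was highest and sham peri lowest, for rno-miR-206-3p PostC core highest and tMCAO peri lowest, and for rno-miR-499-5p sham core highest and tMCAO core lowest. In these 4 all neighbouring groups overlapped.

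The opposite arms and close relatives of the members were mostly dim. Of 9 on the array, rno-miR-1-5p, rno-miR-133a-5p, rno-miR-206-5p, rno-miR-208b-3p, rno-miR-208b-5p and rno-miR-499-3p were detected on no array, rno-miR-133b-5p on 1 and rno-miR-133c on 2, which left rno-miR-1b as the 1 tested. The summed intensity of the 9 was 26.5 to 73.5 units in sham peri and between 59.7 and 155 units in the other groups.

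Other miRNAs that muscle shares with other tissues were present in every group. All 6 miRNAs enriched in but not particular to muscle were tested, and 1 rose after tMCAO and none fell, where 11.8% of all miRNAs passed. This was rno-miR-486, chosen for naming after its values were seen, with a log2 difference of 1.39 (adjusted p = 0.00951). Their median log2 difference was 0.25, beside -0.02 over all miRNAs, and 5 of the 6 were positive. The other was rno-miR-27a-3p at -1.21, which did not pass (adjusted p = 0.0765). By region the median was 0.71 in core, with 5 of 6 positive, and -0.30 in peri, with 1 of 6 positive, and none passed in either. Of the 4 vascular smooth muscle miRNAs (both arms of miR-143 and miR-145), 3 were tested and none passed in any comparison of rat means. Their summed intensity overlapped between conditions, at 5543 to 10694 units in sham core, 8653 to 12851 in tMCAO core and 7780 to 11988 in PostC core. The 2 endothelial miRNAs (both arms of miR-126a) were tested with none called. Their summed intensity in core was 8880 to 14038 units in sham, 3821 to 7543 in tMCAO and 4041 to 7838 in PostC rats, so that tMCAO and PostC lay below sham without overlap, while in peri sham (6580 to 8637) and tMCAO (5222 to 7191) overlapped. rno-miR-1-3p was lower in core of tMCAO than of sham rats, but not in core of PostC rats (8.52 against 8.01 in sham). In peri it was lower after tMCAO as well (7.01 against 8.19). The part of the endothelial miRNAs in its fall was not tested. Of 4 red blood cell miRNAs 2 were tested and 1 rose after tMCAO, where 4.51% of all miRNAs did. This was rno-miR-486 again, which stands in both lists. The other, rno-miR-451-5p, detected on 18 arrays, did not pass by limma, at 0.14 (adjusted p = 0.809).

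Outside the 7 members, the miRNAs with the most similar profile over 18 arrays were rno-miR-3064-5p (r = 0.98) and rno-miR-496-5p (r = 0.97) for rno-miR-1-3p, and rno-miR-873-3p (r = 0.88) and rno-miR-134-3p (r = 0.87) for rno-miR-133a-3p. The same were closest to rno-miR-133b-3p, at 0.85 and 0.82. For rno-miR-206-3p they were rno-miR-3564 (r = 0.91) and rno-miR-327 (r = 0.89), for rno-miR-208a-5p rno-miR-675-5p and rno-miR-1956-5p (r = 0.88 and 0.87), and for rno-miR-499-5p rno-miR-450b-5p (r = 0.88) and rno-miR-340-5p (r = 0.86). The neighbours of rno-miR-208a-5p both had a GC content of 63.6%, against a median of 50% among the miRNAs tested, and those of rno-miR-499-5p 33.3% and 27.3%. Over the 532 miRNAs, the log2 difference of tMCAO against sham correlated with GC content (Spearman's rho 0.34, a description across miRNAs, which are not independent). rno-miR-1-3p has a GC content of 31.8% and rno-miR-208a-5p one of 54.5%. With the GC trend of each array removed, tMCAO against sham was -0.84 for rno-miR-1-3p (limma, adjusted p = 0.0200) and 1.27 for rno-miR-208a-5p (adjusted p = 0.0422). These fits too rest largely on values not above the limit, and the part of GC content in the differences was not tested.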

How the data were processed

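The authors deposited, for each array, the intensity of every spot without background subtraction, and a table of background-subtracted, locally weighted regression-normalized intensities on a linear scale. Labels give a miRNeasy kit for extraction, the study's methods Trizol. Here, spot intensities were background-corrected by normexp (offset 50), log2 values were normalized by cyclic loess with control spots at weight 0, and 4 spots per probe were averaged. Tests used limma 3.58.1 under R 4.3.3 (lmFit, eBayes with a variance trend, Benjamini-Hochberg over 532 miRNAs, threshold 0.05), the rat being the replicate. Intensities carry no counting error, and the number of rats limits precision. Normalization assumes balanced rises and falls. With 3 rats against 3, exact permutation cannot give p under 0.1. Scripts were tested on simulated data. Rats with the same number in different conditions are different animals and were not paired. Members, lists and tests were chosen with earlier results of these data known. The named miRNAs were all members, listed relatives that were tested, and the 2 closest profiles of each member. The build of the probe design was not used, so no coordinates are given.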

Additional observations from a re-analysis of the deposited data

How the results depend on the processing

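The fall of rno-miR-1-3p after tMCAO kept its direction in 24 of 24 alternatives (-4.66 to -0.84) and passed in 22. The exceptions were the methods' t-test (adjusted p = 0.0855) and leaving out tMCAO rat 2. PostC against tMCAO passed in 22 of 24 (1.23 to 4.40), the exceptions being plain subtraction of the empty spots (adjusted p = 0.0549) and the methods' t-test (adjusted p = 0.0813). The rise of rno-miR-208a-5p kept its direction in 24 (0.88 to 4.10) and passed in 18, and was lost without 5 rats and with the deposited table at a floor of 50 units (adjusted p = 0.143). The cause was not tested.

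The number of members called for tMCAO against sham in the rat means changed from 2 to 1 with the deposited table at a floor of 50 units and with the methods' t-test, and ran from 0 to 2 when 1 rat was left out. For PostC against tMCAO it changed from 1 to 0 under plain subtraction of the empty spots and the methods' t-test. For PostC against sham it became 1 under quantile normalization. In core, 1 member was called for tMCAO against sham under plain subtraction of the 25th percentile and in a fit of only the groups compared (0 to 1 leaving out a rat), and 1 for PostC against sham under plain subtraction of the empty spots (0 to 1 leaving out a rat). In peri, tMCAO against sham called 1 under plain subtraction of the 25th percentile, 2 under median scaling, 2 with only the groups compared, and 0 to 2 leaving out a rat. PostC against tMCAO in peri called 0 to 2 leaving out a rat. Core against peri called 1, rno-miR-208a-5p, under both plain subtractions, with the deposited table at a floor of 1 unit and without the variance trend, and 0 to 1 leaving out a rat, but that member entered the tests through core arrays alone.

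Values that never passed turned sign as follows. rno-miR-1-3p in PostC against sham was -0.25 under subtraction of the 25th percentile, -0.14 under quantile normalization, and -0.33 and -0.075 with the deposited table at floors of 1 and 50 units. rno-miR-206-3p in PostC against sham was -0.49 under subtraction of the empty spots and -0.10 under quantile normalization. In PostC against tMCAO, rno-miR-133a-3p was 0.12 under subtraction of the empty spots and 0.17 under median scaling, with -0.18 to 0.010 leaving out a rat. rno-miR-499-5p was 0.32 and 0.023 under the same settings and 0.069 with the floor of 50 units, and rno-miR-208a-5p was -0.11 under subtraction of the 25th percentile, with -0.21 to 0.65 leaving out a rat. Leaving out a rat gave rno-miR-499-5p -0.71 to 0.21 for tMCAO and -0.82 to 0.10 for PostC against sham, and gave -0.080 to 0.52 for the region difference of rno-miR-1-3p.

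Over all miRNAs, 63 were called for tMCAO against sham in the rat means, 126 with the deposited table at a floor of 1 unit, 125 under median scaling, 119 under quantile normalization, 111 under subtraction of the 25th percentile, 23 with the methods' t-test, 21 of those detected on all arrays and 8 to 96 leaving out a rat. For PostC against tMCAO 30 were called, 15 under subtraction of the empty spots, 6 with the methods' t-test, 3 of those detected on all arrays and 9 to 46 leaving out a rat. For PostC against sham 1 was called, and 7 under quantile normalization. No member was detected on all 18 arrays, so that filter gives none of them a value. With the rat number as a replicate block, 2 members were called for tMCAO against sham and 1 for PostC against tMCAO in the rat means, as without it, and 1 rather than 0 for tMCAO against sham in peri. Same-numbered rats deviated together (r above 0.1, core and peri averaged) in 2 of 9 pairs. Cyclic loess on all spots and averaging of spots before it were added after seeing the data. Empty spots that outshine dim miRNAs on several arrays limit what detection can show.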
